A study of Mus musculus with 3 samples.

Results

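Collagen genes encode the chains of the collagens, the helical proteins that make up much of the extracellular matrix. Here they were taken as every protein-coding gene whose symbol has the form Col, a number, the letter a and a number in the GENCODE annotation of mm10, on an autosome and with a span of at most 500 kb. That gave 42 of the 21593 genes counted. The rule on symbols alone gave 44, and the 2 left out, Col4a5 and Col4a6, lie on chromosome X. In the grouping used here, 7 members are fibrillar outside cartilage, 8 belong to cartilage, 6 to basement membranes and 2 to the anchoring of epithelia. Another 6 belong to the beaded filaments of type VI, 2 to type VIII, 6 are fibril-associated outside cartilage, 3 span the cell membrane and 2 are of other kinds. Col2a1, Col11a1, Col11a2 and Col27a1 also encode fibrillar chains but are grouped with cartilage. Below, fibrillar genes are the 7 outside cartilage.

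Chromatin accessibility was profiled by single-nucleus ATAC-seq (snATAC-seq), in which the transposase Tn5 inserts adapters into open DNA of nuclei that each receive a barcode. The 3 libraries came from wild-type (WT) C57BL/6JRj mice, with no treatment named. They stand for 3 stages named by the day of gestation, E12.5, E13.5 and E15.5, with 1 library each. Nuclei came from frozen sections of embryos whose littermates gave the study's spatial maps, and they were stained with 7-AAD, a dye for DNA, and sorted. Nothing in the labels singles out a tissue. The labels do not say how many embryos gave each library, so the spread between libraries mixes stage, embryo and preparation.

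Collagen chains wind around each other into long helices, which assemble into fibrils, sheets or filaments by type. Types I, III and V form the fibrils of skin, bone and tendon, whereas type II with types IX and XI forms the fine fibrils of cartilage. Type IV builds the sheet of basement membranes, to which types XV and XVIII attach, and type VI forms beaded filaments close to cells. In the embryo, mesenchymal cells and chondrocytes are the best known sources of fibrillar collagens, and chondrocytes of those of cartilage.

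The cluster numbers that the authors deposited for each nucleus served as cell classes, without clusters 2 and 4. Those clusters were made from these nuclei, joined with the study's spatial ATAC profiles, so a test of a cluster against the others describes how the clusters differ and is not evidence apart from the clustering. Cluster 1 had 6 of 6 mesenchyme markers raised by 1.5-fold or more over the other clusters, and is called mesenchyme-like. Col3a1 itself and Lox stood among its 10 leading genes by fold, so that name and the collagen values are not independent. By the same rule, cluster 10 was muscle-like (5 of 6 markers), cluster 9 neural progenitor-like (6 of 6), clusters 0 and 6 neuron-like (5 of 5 each) and clusters 5 and 11 erythroid-like (6 of 6 each). Clusters 3, 7 and 8 stay unnamed. Cluster 3 had 6 of 6 mesenchyme markers raised, but Olfr30, an olfactory receptor gene, led it. Its nuclei were the deepest, and 5.99% to 7.44% of its fragments lay at promoters, the lowest range of the 10 clusters. Cluster 7 mixed 6 of 7 chondrocyte, 6 of 7 epithelial and 3 of 6 Schwann cell and glia markers. Cluster 8 mixed 5 of 6 endothelial, 4 of 5 liver and 6 of 6 white blood cell markers.

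Unique fragments were summed per cluster and library wherever at least 10 nuclei were present, and the sums held 344651 to 8625628 fragments in counted genes. Levels are given as CPM, counts of the fragments that overlap a gene or the 2 kb before its start, scaled by the total of such fragments over all counted genes of the sum. Levels of genes of unlike length are compared per kb only. Clusters 6, 7, 8 and 10 had no E12.5 sum, and cluster 11 had 1 sum, of 35 nuclei at E13.5, with 37.5% of its fragments at promoters. Of the nuclei, 11 of 36 in cluster 7 at E13.5 shared fragments with another barcode, against at most 9 in any other sum. The 42 members are long, with a median counted length of 112.85 kb against 21.4 kb over the 19688 genes tested, and had a median of 5191.5 fragments against 2394. At their promoters the order was opposite, with a median of 187 fragments against 359.

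Sequences of 300 bases are given for promoters of members with large differences over the gene body, and for 2 windows inside genes. The windows were chosen after their values were seen. A printed promoter is not always where the difference of its gene lay. RefSeq promoters run from 250 bases before to 50 bases after a start, and 33 of the 42 members had at least 1. All 7 sequences are given 5′ to 3′ on the strand of the gene, in build GRCm38.p6. The promoters matched the genome of that build, and the 2 windows were cut from it. The letters TATAAA for the TATA box, CCAAT for the box of that name, GGGCGG for the GC box, ACAAAG or ACAATG for Sox-type sites, and TGANTCA for AP-1-type sites were searched on both strands, and matches stand in capitals, on the minus strand as the reverse complement. In the Col5a1 window AGATAA, a motif known for GATA factors, was searched as well, and was added after the values were seen. Of 32851 RefSeq promoters of this length, 13.6% held TATAAA, 37.4% CCAAT, 35.7% GGGCGG, 18.7% ACAAAG, 12.6% ACAATG, 7.81% TGANTCA and 11.2% AGATAA. The Col3a1 promoter lies at chr1:45311288-45311587, plus strand. The Col1a2 promoter lies at chr6:4505368-4505667, plus strand, around a RefSeq start 804 bp inside the GENCODE start. RefSeq gives Col9a1, a gene with 4 starts in GENCODE, 2 promoters around starts 17593 bp apart, at chr1:24177360-24177659, plus strand, and at chr1:24194953-24195252, plus strand. The Col4a2 promoter lies at chr8:11312555-11312854, plus strand, and takes in the start of Col4a1, 21 bp away on the other strand. With cluster 11 left aside, the mean promoter CPM of Col4a2 was highest in cluster 3. Its gene body led in muscle-like cluster 10, where the leading window lay 69.5 kb into the gene. The window in Col5a1 was open in erythroid-like cluster 5 and lies in intron 27, at chr2:27982025-27982324, plus strand. The window in Col2a1 was open in progenitor-like cluster 9 and lies in intron 1, at chr15:98002296-98002595, minus strand.
Col3a1 promoter: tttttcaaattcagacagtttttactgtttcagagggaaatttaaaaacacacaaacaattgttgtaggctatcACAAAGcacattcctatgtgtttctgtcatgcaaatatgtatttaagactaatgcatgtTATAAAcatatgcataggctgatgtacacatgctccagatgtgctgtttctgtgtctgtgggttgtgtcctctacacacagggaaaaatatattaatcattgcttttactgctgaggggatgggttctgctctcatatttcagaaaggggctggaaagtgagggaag
Col1a2 promoter: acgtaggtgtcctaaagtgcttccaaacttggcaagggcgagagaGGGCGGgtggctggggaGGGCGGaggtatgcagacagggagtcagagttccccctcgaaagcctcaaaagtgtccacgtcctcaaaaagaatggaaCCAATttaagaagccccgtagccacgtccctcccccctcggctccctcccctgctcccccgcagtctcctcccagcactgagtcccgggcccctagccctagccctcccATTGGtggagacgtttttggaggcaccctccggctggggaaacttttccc
Col9a1 promoter, upstream start: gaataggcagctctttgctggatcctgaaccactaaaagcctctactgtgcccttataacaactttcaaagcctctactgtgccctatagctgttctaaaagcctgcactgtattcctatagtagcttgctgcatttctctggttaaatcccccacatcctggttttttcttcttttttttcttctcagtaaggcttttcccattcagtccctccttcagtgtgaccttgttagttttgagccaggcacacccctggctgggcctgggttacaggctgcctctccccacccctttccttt
Col9a1 promoter, internal start: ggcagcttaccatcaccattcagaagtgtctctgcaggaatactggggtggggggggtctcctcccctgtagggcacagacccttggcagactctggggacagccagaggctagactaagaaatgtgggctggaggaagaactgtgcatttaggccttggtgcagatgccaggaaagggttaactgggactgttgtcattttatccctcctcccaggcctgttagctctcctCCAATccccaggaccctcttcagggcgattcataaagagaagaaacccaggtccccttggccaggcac
Col4a2 promoter: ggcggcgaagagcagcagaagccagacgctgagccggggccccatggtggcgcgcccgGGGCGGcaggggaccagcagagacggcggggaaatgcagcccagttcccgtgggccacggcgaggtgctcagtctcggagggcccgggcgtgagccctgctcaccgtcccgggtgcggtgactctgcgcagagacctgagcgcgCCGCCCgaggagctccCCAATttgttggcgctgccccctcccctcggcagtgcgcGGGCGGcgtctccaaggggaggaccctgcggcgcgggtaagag
Col5a1 window: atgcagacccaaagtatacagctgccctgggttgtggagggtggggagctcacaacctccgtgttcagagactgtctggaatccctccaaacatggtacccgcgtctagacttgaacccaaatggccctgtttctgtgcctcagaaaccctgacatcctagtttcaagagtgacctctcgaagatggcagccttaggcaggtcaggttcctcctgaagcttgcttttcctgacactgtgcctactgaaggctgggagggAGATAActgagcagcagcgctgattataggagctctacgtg
Col2a1 window: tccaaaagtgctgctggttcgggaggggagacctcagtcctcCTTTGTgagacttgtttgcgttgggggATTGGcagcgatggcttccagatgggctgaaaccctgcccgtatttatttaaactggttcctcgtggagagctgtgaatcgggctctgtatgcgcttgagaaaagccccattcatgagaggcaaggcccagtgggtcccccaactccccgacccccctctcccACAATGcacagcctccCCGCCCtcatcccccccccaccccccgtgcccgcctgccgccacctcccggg

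The Col3a1 promoter held TATAAA, 117 bases before the start, and ACAAAG, 176 bases before it, and was the richest of the 7 in A and T (37.7% G and C). The Col1a2 promoter held GGGCGG at 2 places and CCAAT at 2. The upstream Col9a1 promoter held none of the motifs, and the internal one held CCAAT 18 bases before its start. The Col4a2 promoter held GGGCGG at 3 places and CCAAT at 1, and had the highest G and C content, 73.7%. The Col5a1 window held AGATAA once, and the Col2a1 window held 1 CCAAT, 1 GGGCGG, 1 ACAAAG and 1 ACAATG. Among the 36 RefSeq promoters of members, 5 held TATAAA (13.9%, against 13.6% of all promoters), 12 CCAAT (33.3%, against 37.4%), 21 GGGCGG (58.3%, against 35.7%), 5 ACAAAG (13.9%, against 18.7%), 1 ACAATG (2.78%, against 12.6%), 1 TGANTCA (2.78%, against 7.81%) and 2 AGATAA (5.56%, against 11.2%). A match says only that these letters are present.

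The first question was in which clusters the collagen genes were more accessible than in the mean of the other clusters. In edgeR's quasi-likelihood test over all genes, with a call at an adjusted p under 0.05, 25 of 42 members were higher in mesenchyme-like cluster 1, where 7.78% of all genes were. In cluster 3 the count was 38 of 42 (19.0% of all genes), in cluster 7 it was 17 (5.42%), and in muscle-like cluster 10 it was 14 (10.1%). The neural clusters had fewer, with 9 in cluster 9 (9.02%), 7 in cluster 6 (8.50%) and 6 in cluster 0 (12.3%). Cluster 5 had 2 (10.8%) and cluster 8 had 2 (7.20%). Members are long, and clusters differ in the share of their fragments at promoters. The shares over all genes are not matched for either, and their part in the counts was not tested. Cluster 11 lay low, but its 1 sum, of 35 nuclei at E13.5, has no spread of its own, so its calls are not counted here. Among its 467797 gene fragments, 5 of the 42 members had none over the gene body and 2 kb upstream. The share of all genes with none was not counted, so this is not a result about collagens.

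Since cluster 11 enters the mean of the others, its low values raise every other cluster, so the fit was repeated without it, a choice made after the data were seen. Then 18 members were higher in cluster 1 (2.93% of all genes), 20 in cluster 3 (3.59%), 10 in cluster 10 (5.70%) and 7 in cluster 7 (1.23%). Cluster 0 had 4 (5.51%), cluster 9 had 3 (4.15%), cluster 6 had 2 (3.34%), cluster 5 had 1 (14.2%) and cluster 8 had 0 (4.54%). The median log2 fold change of the members in cluster 1 was 0.82 with cluster 11 and 0.39 without it, beside 0.08 and -0.01 over all genes. In cluster 7 it was 0.73 and 0.28, beside 0.10 and 0.01. In what follows, log2 fold changes over gene bodies come with their standard error from the fit on all 10 clusters, and the value without cluster 11 stands beside them, or alone where a gene had no fragment in cluster 11. The calls of a higher level over all clusters numbered 120, and 65 without cluster 11. Leaving out E13.5, the deepest library, also leaves out cluster 11, whose 1 sum is of that stage, so the values without E13.5 here and in what follows are to be read against those without cluster 11. In that fit cluster 1 had 6 calls, cluster 3 had 0, and clusters 0, 5 and 9 had 1 each, while clusters 6, 7, 8 and 10 kept 1 sum each. The shares of all genes called without E13.5 are not given, so a loss of collagen calls cannot be told from a loss over all genes. Clusters 6, 7, 8 and 10 kept 1 sum each without E15.5 as well.

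**Figure D1:**
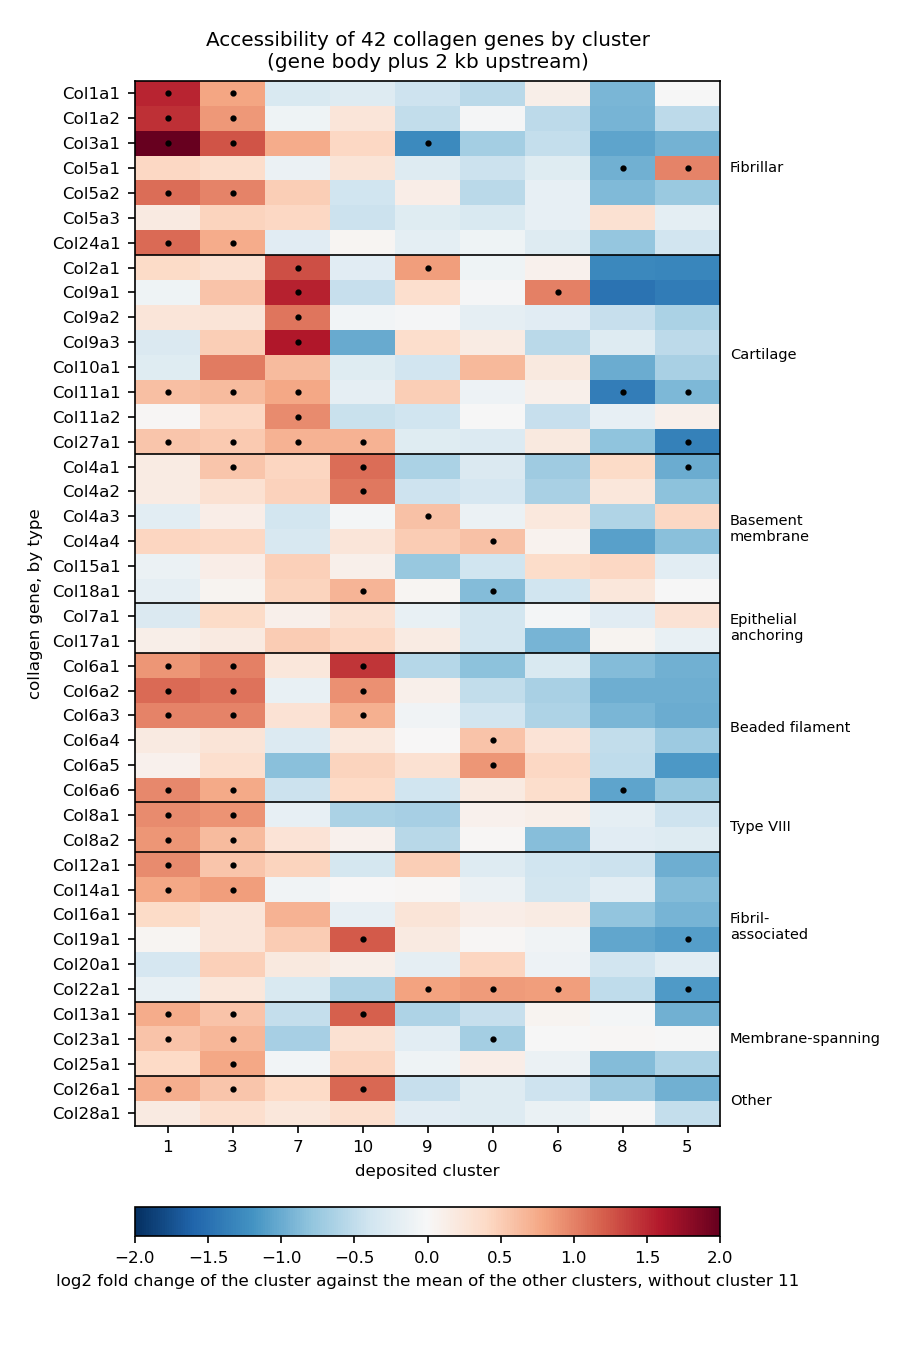
Heat map of the log2 fold change of each of the 42 collagen genes (rows, grouped by type) in 9 deposited clusters (columns), each against the mean of the others without cluster 11, from red (higher) to blue (lower). Black dots mark calls that passed the test with and without cluster 11: dots of the fibrillar type gather in clusters 1 and 3 and those of the cartilage type in cluster 7.

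Fibrillar collagen genes outside cartilage were higher in mesenchyme-like cluster 1, where 5 of the 7 had their highest mean CPM. Of the 7, 6 were higher there (5 without cluster 11), and 7 were higher in cluster 3 (5 without cluster 11). Col3a1 (chr1:45311538-45349706, plus strand), the chain of type III collagen of soft connective tissue, had 66.7 CPM (E12.5), 67.7 CPM (E13.5) and 82.6 CPM (E15.5) in cluster 1. No other sum reached these values, the nearest being 49.5 in cluster 3 at E12.5, and the 3 libraries were close to each other. Its log2 fold change was 2.10 ± 0.23 (adjusted p = 6.55e-08), and 2.0 without cluster 11.

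Type I collagen, the main fibril of bone and skin, has 2 chains, and both genes were highest in cluster 1. Col1a1 (chr11:94936224-94953042, plus strand) had 116 CPM (E12.5), 117 CPM (E13.5) and 176 CPM (E15.5), and of the other sums 1 overlapped, 141 in cluster 5 at E15.5, a sum of 10 nuclei. For Col1a1 the log2 fold change was 1.78 ± 0.23 (adjusted p = 1.02e-06), and 1.53 without cluster 11. Per kb of counted length, Col1a1 had a mean of 7.26 CPM in cluster 1, against 2.14 for Col1a2 and 1.80 for Col3a1. Col1a2 (chr6:4504814-4541544, plus strand) had 55.1 CPM (E12.5), 79.9 CPM (E13.5) and 114 CPM (E15.5), the highest at E15.5, and 3 sums of clusters 3 and 5 lay within that range. That of Col1a2 in the fit was 1.89 ± 0.26, and 1.47 without cluster 11. These genes kept their calls in cluster 1 without the E13.5 library, as did Col3a1.

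The minor fibrillar collagens differed among themselves. Col24a1, a fibrillar chain known from developing bone, had 337 CPM (E12.5), 221 CPM (E13.5) and 249 CPM (E15.5) in cluster 1, above all sums but 1 of cluster 3. The log2 fold change was 1.46 ± 0.18 (1.14 without cluster 11). Col5a2, a chain of type V collagen, which takes part in starting fibrils, had 75.4 CPM (E12.5), 106 CPM (E13.5) and 118 CPM (E15.5) in cluster 1 and overlapped with clusters 3, 7 and 9. Its log2 fold change was 1.26 ± 0.21 (1.11 without cluster 11), and 0.99 without E13.5, where it no longer passed the test. Col5a3 did not pass the test in cluster 1 (0.57 ± 0.27, 0.19 without cluster 11), and in cluster 3 it passed only in the fit with cluster 11 (0.84 ± 0.26, 0.44 without).

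Col5a1 (chr2:27886425-28039514, plus strand), the other main chain of type V, also had its highest mean outside cluster 1: its gene body was most accessible in erythroid-like cluster 5. It had 578 CPM (E12.5), 452 CPM (E13.5) and 406 CPM (E15.5) there, and the nearest other value, 408 in cluster 1 at E15.5, overlapped with the lowest of these. The log2 fold change in cluster 5 was 1.27 ± 0.15 (adjusted p = 4.39e-08), 0.99 without cluster 11, and it passed the test without each library in turn. In cluster 1 it was 0.67 ± 0.15, and 0.41 without cluster 11, where it no longer passed the test. In erythroid-like cluster 11 the same gene had 47.0 CPM (E13.5), the lowest of its values.

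Within Col5a1, 1 window stood out in cluster 5. Tn5 insertions were counted in 500 bp windows and scaled by the gene fragments of the sum, which gives an insertion CPM. The window with the largest excess lay 95.5 kb into the gene, in intron 27, at chr2:27981925-27982424, where the sequence above was taken. Cluster 5 had 48.8 (E12.5), 32.7 (E13.5) and 45.1 (E15.5) there. The next cluster had a mean of 2.08, and cluster 11 had 0. Further windows downstream of it also stood above clusters 1 and 7. The promoter was open elsewhere: from 1000 bp before to 100 bp after the start, and scaled by promoter fragments, Col5a1 had 256 CPM (E12.5), 164 CPM (E13.5) and 169.7 CPM (E15.5) in cluster 1 against 13.7, 10.7 and 10.0 in cluster 5 in the same order. Of clusters 1 and 5, the intronic window of Col5a1 was thus more open in cluster 5 and the promoter in cluster 1, and at the promoter their libraries did not overlap. In the 500 bp after the start, a window chosen after its values were seen, cluster 1 did not lead. Its mean there was 10.1 insertion CPM, against 11.5 in cluster 7, 10.7 in each of clusters 3 and 9, and 2.76 in cluster 5.

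**Figure D2:**
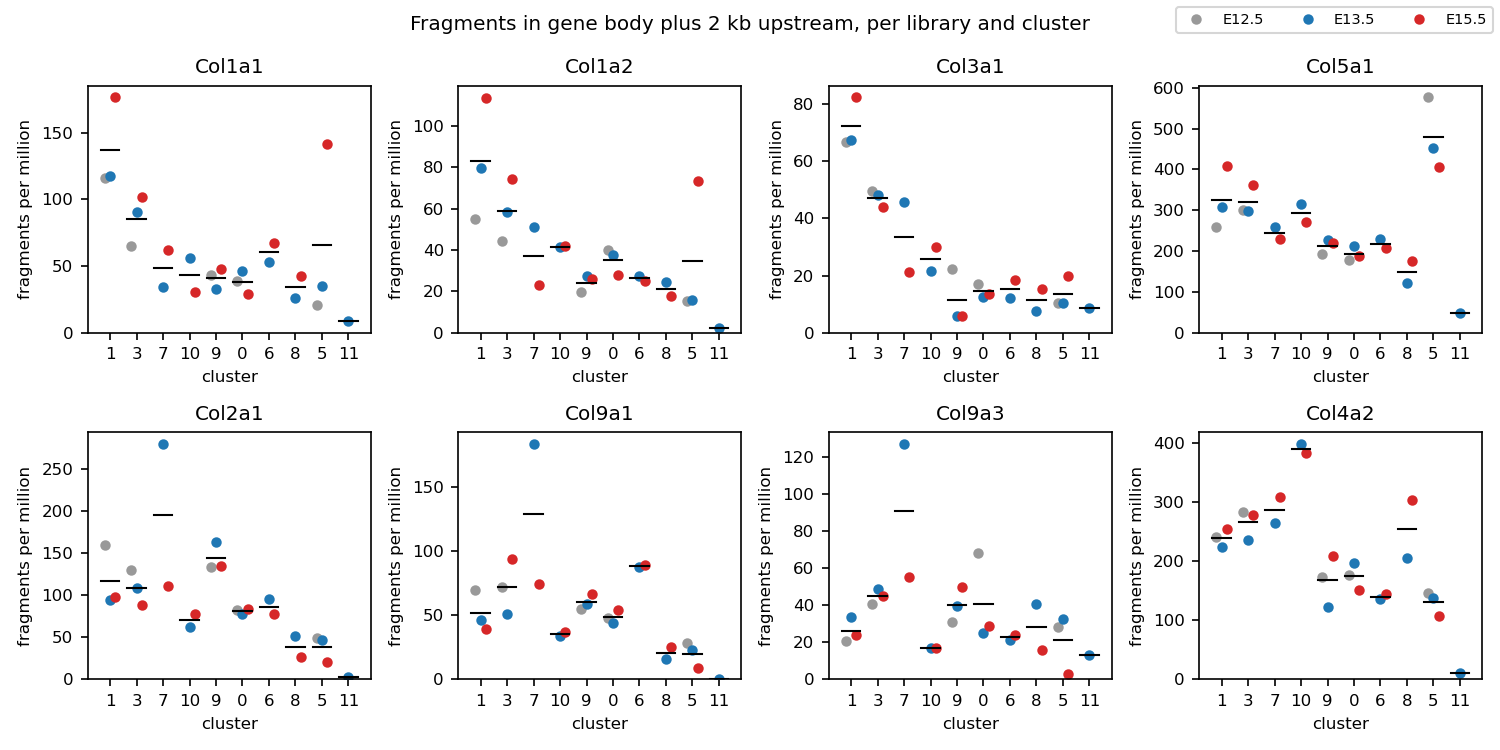
Dot plot of CPM in gene body plus 2 kb upstream (vertical axes, from 0) for 8 collagen genes in each deposited cluster (horizontal axes), with a dot per library coloured by stage and a bar at the mean of a cluster. Col1a1, Col1a2 and Col3a1 stand highest in cluster 1, Col5a1 in cluster 5, Col2a1, Col9a1 and Col9a3 in cluster 7, with the E13.5 dot above that of E15.5, and Col4a2 in cluster 10.

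The promoters of the fibrillar genes outside cartilage followed cluster 1. All 7 had their highest mean promoter CPM there. Of the fibrillar genes grouped with cartilage, Col11a1 did too. With cluster 11 left aside, Col2a1, Col11a2 and Col27a1 had theirs in cluster 7. In the fit of promoter fragments over 15585 genes, 6 of the 7 were higher in cluster 1 (5 without cluster 11). Col3a1 had 53.8 CPM (E12.5), 31.2 CPM (E13.5) and 40.5 CPM (E15.5), and 1 sum elsewhere overlapped, 38.4 in cluster 3 at E12.5. Of the 42 members, 35 had no promoter fragment in cluster 11, so promoter fold changes are given from the fit without it. The share of all genes with none there was not counted either. The Col3a1 promoter passed the test in both fits (adjusted p = 9.58e-11 and 2.59e-09 without cluster 11), but it also had no fragment in cluster 0, so no fold is given. Col1a1 had 40.4 CPM (E12.5), 94.5 CPM (E13.5) and 134 CPM (E15.5), cluster 3 overlapped with it, and the log2 fold change was 2.84 ± 0.27. The E12.5 values rest on few fragments, 4 for Col3a1 and 3 for Col1a1. At the Col5a1 promoter the log2 fold change was 1.48 ± 0.17, although its gene body led in cluster 5. In cluster 1, without cluster 11, the log2 fold change was larger at the promoter than over the gene body for 5 of the 6 fibrillar members other than Col3a1, from 2.84 against 1.53 for Col1a1 to 1.69 against 1.47 for Col1a2, and smaller for Col24a1, with 1.07 against 1.14. The Col1a2 promoter had a mean of 20.8 CPM in cluster 1, 20.1 in cluster 10 and 19.2 in cluster 3, and lay close in all 3. That window ends 100 bp after the GENCODE start and does not reach the RefSeq start of the sequence above. The 500 bp window around that start had a mean of 40.5 insertion CPM in cluster 1, 17.3 in cluster 3 and 12.2 in cluster 10. The difference between promoters and gene bodies was not tested.

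Cartilage collagen genes were higher in cluster 7, the cluster with chondrocyte, epithelial and glial markers, where 7 of the 8 had their highest mean CPM. The same 7 were called higher there, with and without cluster 11. Col2a1 (chr15:97975602-98004695, minus strand), the main collagen of cartilage, had 279 CPM (E13.5) and 111 CPM (E15.5) in cluster 7. The E13.5 value stood above every other sum, while the E15.5 value lay below all 3 sums of progenitor-like cluster 9. Its log2 fold change in cluster 7 was 1.88 ± 0.22 (adjusted p = 1.44e-06), and 1.29 without cluster 11. In cluster 9 it had 133 CPM (E12.5), 164 CPM (E13.5) and 134 CPM (E15.5), with a log2 fold change of 1.42 ± 0.21 (adjusted p = 5.18e-06, 0.84 without cluster 11).

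Type IX collagen sits on the surface of type II fibrils and has 3 chains, all higher in cluster 7. Col9a1 (chr1:24177610-24252684, plus strand) had 183 CPM (E13.5) and 74.1 CPM (E15.5), and 3 sums of clusters 3 and 6 were above the latter. Its log2 fold change was 2.64 ± 0.31 (adjusted p = 1.44e-06). Since Col9a1 had 0 of 467797 fragments in cluster 11, a count that allows up to 3, that value depends on the fit's prior, and the value without cluster 11, 1.54 ± 0.22, is the one to read. Col9a1 was also higher in neuron-like cluster 6, with 87.1 CPM (E13.5) and 89.3 CPM (E15.5) (log2 fold change 1.00 without cluster 11). Col9a2 had 89.1 CPM (E13.5) and 33.4 CPM (E15.5) in cluster 7, and the latter value lay among those of other clusters. Col9a3 had 127 CPM (E13.5) and 55.0 CPM (E15.5), and 1 sum elsewhere overlapped, 68.0 in cluster 0 at E12.5. The log2 fold changes were 1.37 ± 0.30 for Col9a2 and 1.75 ± 0.27 for Col9a3, and 1.06 and 1.6 without cluster 11.

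Types XI and XXVII are further collagens of cartilage. In cluster 7 the log2 fold change was 0.98 ± 0.20 for Col11a1, 0.95 ± 0.23 for Col11a2 and 1.19 ± 0.19 for Col27a1, and 0.77, 0.94 and 0.69 without cluster 11. Their E15.5 values in cluster 7 overlapped with other clusters, and those of Col11a1 and Col27a1 also stood high in clusters 1 and 3. Col27a1 was as high in muscle-like cluster 10, with 262 CPM (E13.5) and 351 CPM (E15.5) and a log2 fold change of 1.19 ± 0.19 (0.69 without cluster 11). Col10a1, the collagen of hypertrophic cartilage, did not pass the test in cluster 7 (adjusted p = 0.378). It had no fragment in cluster 11, and without that cluster its log2 fold change was 0.64 ± 0.57. The mean of Col10a1 was highest in cluster 3, where it passed the test with cluster 11 but not without it (1.04). It lies within Nt5dc1 and had 11 fragments at E13.5 and 18 at E15.5 in cluster 7. Of the 7 calls in cluster 7, none was made without E13.5, a fit that also lacks cluster 11 and leaves cluster 7 with 1 sum. There the log2 fold changes were 0.68 for Col2a1, 0.67 for Col9a1, 0.23 for Col9a2, 1.15 for Col9a3, 0.26 for Col11a1, 0.41 for Col11a2 and 0.41 for Col27a1.

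Within the cartilage genes the signals fell in separate places. At the upstream start of Col9a1, in the 500 bp before it, cluster 7 had 13.54 (E13.5) and 7.03 (E15.5) insertion CPM, and no other cluster had a mean above 1.06. The window 18 kb downstream, beside the internal RefSeq start, had 19.2 (E13.5) and 4.39 (E15.5) in cluster 7, and the next mean was 4.45 in cluster 1. In the adjoining window, centred 18.75 kb from the start, the means were 12.02 in cluster 7 and 11.3 in cluster 1. The window with the largest excess in cluster 7 lay 53 kb into the gene, in intron 29, with 20.7 (E13.5) and 3.22 (E15.5), the latter below the mean of 3.78 in cluster 6. In neuron-like cluster 6 the leading window of the same gene was another, 48.5 kb from the start in intron 28 (chr1:24226110-24226609), with 14.6 (E13.5) and 28.3 (E15.5) against a mean of 6.32 in cluster 7. The window at 53 kb lay 1093 bp from another annotated start and that at 48.5 kb lay 2908 bp from one. In cluster 7 the signal of Col9a1 thus stood at the upstream start, beside the internal start and at 53 kb, and in cluster 6 it was highest at 48.5 kb.

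In Col2a1 the leading window also differed between clusters. The 500 bp before its start held 51.3 (E13.5) and 12.9 (E15.5) insertion CPM in cluster 7, against a mean of 16.2 in cluster 9. The window 2 kb into the gene in intron 1, 309 bp from another annotated start (chr15:98002196-98002695), led in cluster 9, with 15.4 (E12.5), 19.6 (E13.5) and 25.9 (E15.5), against a mean of 10.8 in cluster 1, 9.02 in cluster 6 and 6.34 in cluster 7. The leading window of Col11a2 in cluster 7, in intron 1, had 37.1 (E13.5) and 10.8 (E15.5), against a mean of at most 4.28 elsewhere, and that of Col9a3, in intron 11, had 24.2 (E13.5) and 9.66 (E15.5), against at most 4.80. Those of Col9a2 and Col27a1 stood less apart, with means of 20.5 and 20.4 in cluster 7 and of 15.77 and 15.76 in cluster 1. The internal window of Col27a1 with the most insertions over all clusters was another, in intron 24. It had means of 39.9 in cluster 6, 25.1 in cluster 1, 16.8 in cluster 10 and 3.85 in cluster 7. The leading window of Col11a1 in cluster 7, before its start, had a mean of 30.3 there, below the 48.3 of cluster 1, 33.4 of cluster 9 and 33.3 of cluster 6. In the promoter fit, 5 of 7 cartilage members tested were higher in cluster 7 (4 without cluster 11). The Col2a1 promoter had a log2 fold change of 2.03 ± 0.28 without cluster 11. The Col9a1 promoter passed the test in both fits, with 62.7 CPM (E13.5) and 24.6 CPM (E15.5) in cluster 7, but had no fragment in clusters 10 and 11, so no fold is given. Without E13.5, a check added after the values were seen, the leading window in cluster 7 was another for all 7 genes called there, that of Col9a1 then being the one before the upstream start, and without E15.5 that of Col2a1 in cluster 9 lay 11.5 kb into the gene. The windows were chosen for their difference, so their values are a description.

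**Figure D3:**
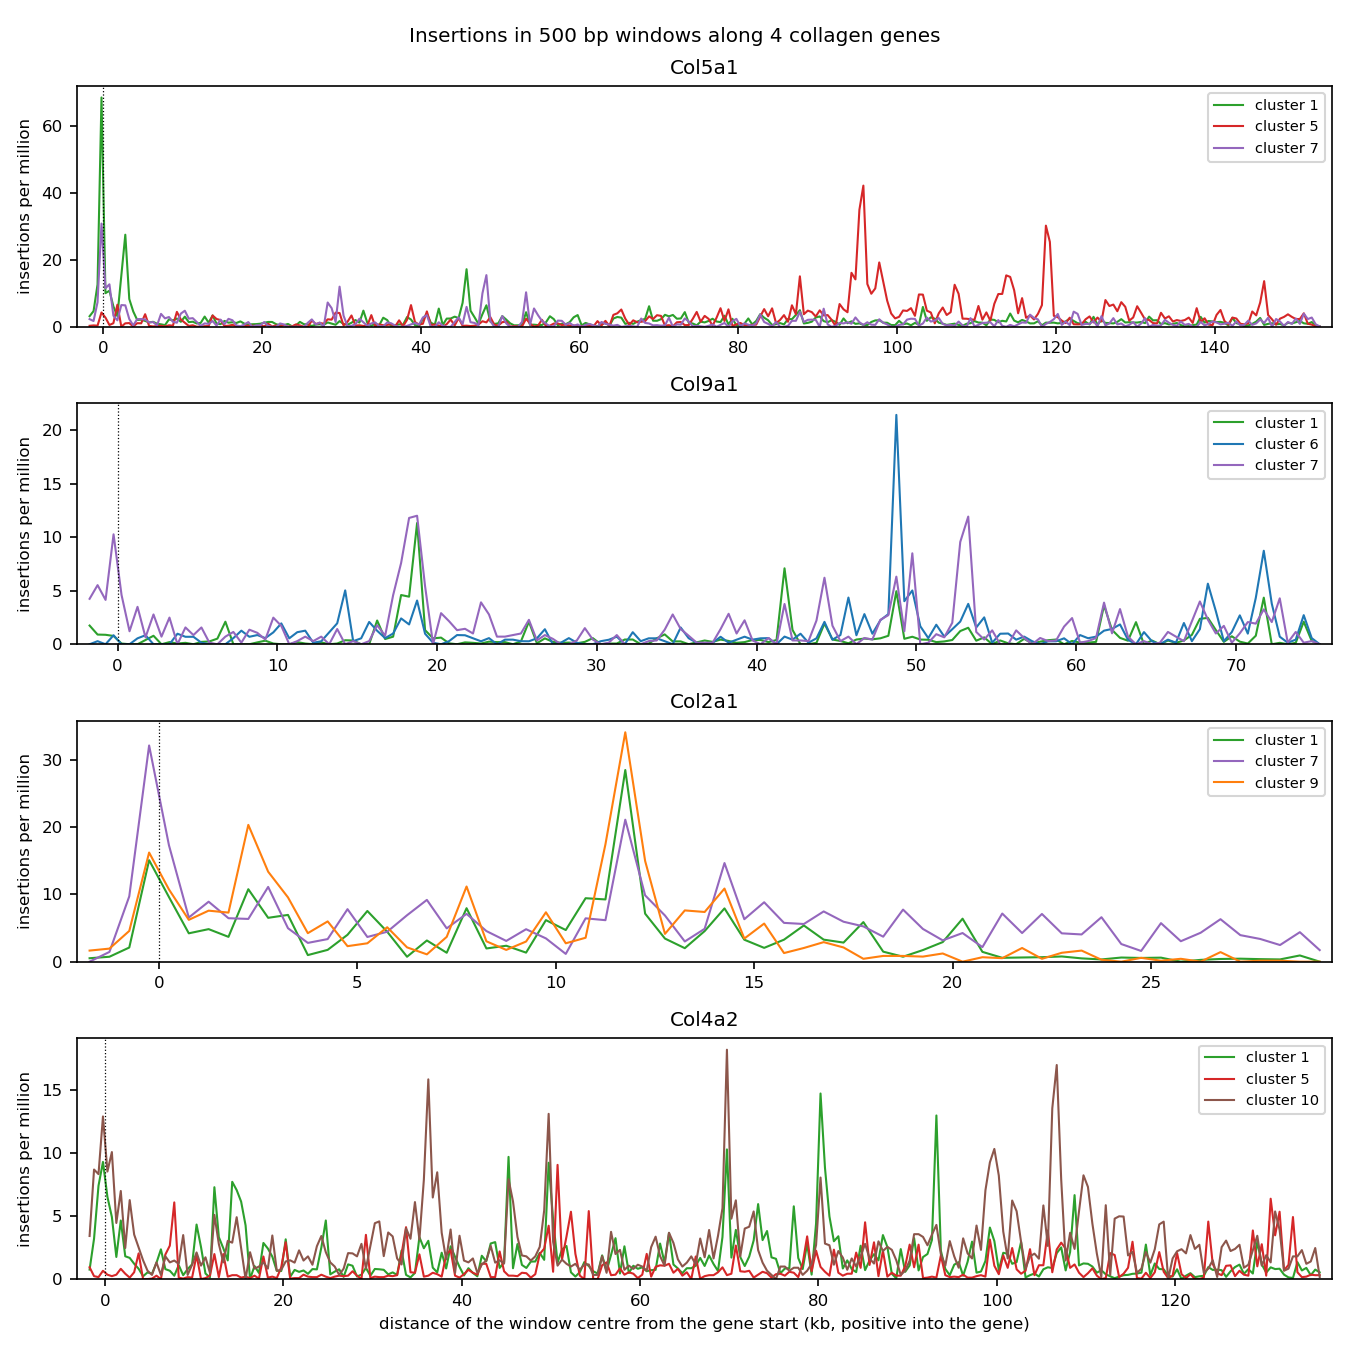
Line plots of insertion CPM (vertical axes, mean of the libraries) in 500 bp windows against the distance from the gene start in kb (horizontal axes), for 4 collagen genes in the clusters of the key. The cluster 5 line of Col5a1 peaks 95.5 kb into the gene, the cluster 7 line of Col9a1 at the upstream start, near 18 kb (with cluster 1 about as high at 18.75 kb) and at 53 kb, its cluster 6 line at 48.5 kb, and the cluster 10 line of Col4a2 is highest at 69.5 kb.

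Basement membrane collagen genes did not follow 1 cluster. Of the 6, 4 were higher in muscle-like cluster 10 (3 without cluster 11), 5 in cluster 3 (1), 4 in cluster 7 (0), 2 in cluster 8 (0), and 2 in cluster 1 (0). Col4a1 (chr8:11198423-11312826, minus strand) and Col4a2 (chr8:11312805-11449287, plus strand) encode the chains of the type IV collagen found in nearly all basement membranes. Their starts lie 21 bp apart and the counted spans share 4022 bp, so part of their fragments are the same. Col4a2 had 398 CPM (E13.5) and 382 CPM (E15.5) in cluster 10, above every other sum, of which the highest was 309 in cluster 7 at E15.5. Col4a1 had 263 CPM (E13.5) and 300 CPM (E15.5), also above every other sum. The log2 fold change in cluster 10 was 1.5 ± 0.17 (adjusted p = 3.64e-08) for Col4a2 and 1.26 ± 0.18 for Col4a1, and 1.05 and 1.11 without cluster 11. Neither passed the test without E13.5, which left cluster 10 with 1 sum.

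The windows that led in cluster 10 lay far from the shared start, outside the span both genes share. That of Col4a1 was 71 kb into the gene, in intron 12 and 179 bp from another annotated start (chr8:11241327-11241826), with a mean of 23.9 insertion CPM and 2.55 in the next cluster. That of Col4a2 was 69.5 kb into the gene, in intron 4 (chr8:11382305-11382804), with 18.2 and, in cluster 1, 10.3. Without E15.5 the leading window of Col4a2 was another, 36 kb into the gene, and that of Col4a1 was the same without each library.

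The other basement membrane genes had smaller differences. Col18a1, the source of endostatin, had 302 CPM (E13.5) and 265 CPM (E15.5) in cluster 10 and overlapped with clusters 5 and 7 (0.95 ± 0.18, 0.68 without cluster 11). Its span shares 8825 bp with Slc19a1. Col4a3 and Col4a4 encode chains of the type IV collagen of the mature glomerulus, and their starts lie 72 bp apart. Col4a3 led in progenitor-like cluster 9, with 137 CPM (E12.5), 69.4 CPM (E13.5) and 86.9 CPM (E15.5) (1.10 ± 0.21, 0.58 without cluster 11), and 6 sums of other clusters lay in that range. Col4a4 led in neuron-like cluster 0, with 121 CPM (E12.5), 113 CPM (E13.5) and 88.7 CPM (E15.5) (1.15 ± 0.19, 0.59), and 8 sums of other clusters overlapped. Col15a1 led in cluster 7, with 145 CPM (E13.5) and 194 CPM (E15.5). It passed the test there in the fit with cluster 11 (0.83 ± 0.20) but not without it (0.47). The internal window of Col15a1 with the most insertions over all clusters, in intron 28, had a mean of 20.5 insertion CPM in cluster 5 and 1.46 in cluster 7. Of the 2 anchoring genes, Col17a1, a hemidesmosome chain of the skin, was highest in cluster 7 (0.84 ± 0.25, adjusted p = 0.0340), which was lost without cluster 11 (0.51), with DESeq2 and without E13.5 or E15.5. Col7a1, the anchoring fibril chain, had its highest mean in cluster 5 and did not pass the test there (0.45 ± 0.25, 0.28 without cluster 11).

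Type VI genes were higher in clusters 1, 3 and 10. Of the 6, 5 were higher in cluster 1 (4 without cluster 11), 6 in cluster 3 (4) and 4 in cluster 10 (3). Col6a1, Col6a2 and Col6a3 encode the main chains of the type VI filament. Col6a3 had 101 CPM (E12.5), 111 CPM (E13.5) and 142 CPM (E15.5) in cluster 3, where it was highest, and 69.6 CPM (E12.5), 119.5 CPM (E13.5) and 159 CPM (E15.5) in cluster 1. The log2 fold change was 1.42 ± 0.18 and 1.41 ± 0.18, and 0.99 and 0.99 without cluster 11. Col6a1 and Col6a2 had no fragment in cluster 11, so their values without it are read. Col6a2 had 57.4 CPM (E12.5), 64.6 CPM (E13.5) and 99.4 CPM (E15.5) in cluster 3, and its log2 fold change without cluster 11 was 1.09 there and 1.13 in cluster 1. Col6a1 led in muscle-like cluster 10, with 72.7 CPM (E13.5) and 54.0 CPM (E15.5) and a log2 fold change of 1.43 ± 0.26 without cluster 11. It was called there but not without E13.5.

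The leading window of Col6a1 in cluster 10 lay over exon 24, 11.5 kb from the start (chr10:76714169-76714668), with a mean of 18.1 insertion CPM against at most 2.75 in any other cluster. In cluster 1 the window at the start of Col6a1 led, with a mean of 21.0. The Col6a2 start had a mean of 54.8 in cluster 1 and 33.6 in cluster 10, and the 500 bp before the Col6a3 start had 35.7 in cluster 1 and at most 9.43 elsewhere. The later-found chains differed: Col6a6 led in cluster 1 (1.06 ± 0.18, 0.96 without cluster 11), whereas Col6a4 (1.07 ± 0.20, 0.57) and Col6a5 (1.27 ± 0.18, 0.89) led in neuron-like cluster 0. These 3 genes lie side by side on chromosome 9, and 27917 and 28810 bp separate them.

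Among the remaining types, those of mesenchyme-like cluster 1 and cluster 3 came first. Both type VIII genes, which encode a short-chain network collagen, were higher in each of these clusters, with and without cluster 11. Col8a1 had 122 CPM (E12.5), 89.7 CPM (E13.5) and 80.2 CPM (E15.5) in cluster 3 (1.31 ± 0.20, 0.90 without cluster 11), and Col8a2 had 174 CPM (E12.5), 123 CPM (E13.5) and 95.7 CPM (E15.5) in cluster 1 (1.06 ± 0.19, 0.89). Of the fibril-associated genes, Col12a1, a tendon and fascia collagen, led in cluster 1, with 81.2 CPM (E12.5), 131 CPM (E13.5) and 167 CPM (E15.5) (1.22 ± 0.18, 0.94). Col14a1, which binds the surface of fibrils, led in cluster 3, with 210.4 CPM (E12.5), 206 CPM (E13.5) and 203 CPM (E15.5) (1.49 ± 0.20, 0.83), and its E15.5 value in cluster 1 was higher, 266. Col16a1 led in cluster 7 (1.15 ± 0.23) and Col20a1, which had no fragment in cluster 11, in cluster 3, and neither passed the test without cluster 11 (0.69 and 0.48).

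Muscle-like and neural clusters led for Col19a1, Col13a1, Col26a1 and Col22a1. Col19a1, known from muscle development, had 302 CPM (E13.5) and 248 CPM (E15.5) in cluster 10, above every other sum (1.55 ± 0.19, 1.22 without cluster 11). Col13a1, a membrane-spanning collagen of the neuromuscular junction, had 401 CPM (E13.5) and 356 CPM (E15.5) there (1.67 ± 0.20, 1.20), and cluster 1 reached 379 at E15.5. Col26a1 had 372 CPM (E13.5) and 348 CPM (E15.5) (1.56 ± 0.18, 1.15), a call kept without each library in turn, and cluster 1 reached 406 at E12.5. The Col26a1 signal of cluster 10 led in intron 1, 13 kb from the start, with a mean of 34.0 insertion CPM against 11.5 in cluster 1, while in cluster 1 it led in intron 3 with 29.4. Col22a1 was higher in all 3 neural clusters: 1.11 ± 0.19 in cluster 0, 1.09 ± 0.22 in cluster 6 and 1.05 ± 0.20 in cluster 9, and 0.85, 0.83 and 0.80 without cluster 11. Its leading window in cluster 9 lay in intron 1, with a mean of 22.3 insertion CPM against at most 2.93 elsewhere, and that in cluster 6 lay in intron 59, with 13.2 against 1.98. That in cluster 0, in intron 23, had 9.55, below the 12.7 of cluster 6 and near the 8.08 of cluster 1, and another window led without E13.5 or E15.5. The membrane-spanning Col23a1 (0.71 ± 0.15, 0.67) and Col25a1 (1.37 ± 0.16, 0.77) led in cluster 3, and Col28a1 did not pass the test in cluster 1, where its mean was highest (0.43 ± 0.20, 0.19 without cluster 11).

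Across the 65 pairs of a member and a cluster that were higher with and without cluster 11, the window with the largest excess lay within 1000 bp of an annotated start of the gene in 29 and elsewhere in 36. The share near a start was 7 of 11 for fibrillar genes, 6 of 14 for cartilage genes and 2 of 6 for basement membrane genes. By cluster it was 10 of 18 in cluster 1, 13 of 20 in cluster 3, 2 of 7 in cluster 7, 3 of 10 in cluster 10 and 0 of 4 in cluster 0. Some of these windows rest on few insertions of 1 library, such as those of Col14a1, Col23a1 and Col8a1 in cluster 1, which had 5, 9 and 6 insertions at E12.5 and 0.526 to 2.63 insertion CPM in the other libraries. Leaving out E12.5, E13.5 or E15.5 kept the leading window of 40, 44 or 43 of the 65 pairs, and 27, 25 or 25 then lay near a start. In cluster 3 without E12.5 it kept 4 of 20, and in cluster 7 without E13.5 it kept 0 of 7, 4 of which then lay near a start. The windows were chosen for their excess, and no test was made of the shares. The share of all windows that lie near a start was not counted. Members differ in span and in annotated starts, such as 16819 bp with 4 starts for Col1a1 and 135139 bp with 3 for Col4a3. The shares of types and clusters therefore cannot be compared.

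Low values were found in the erythroid-like clusters and in cluster 8. Without cluster 11, 23 of 42 members were lower in cluster 5, beside 16.3% of all genes, and 14 of 42 in cluster 8, beside 3.78%. In the fit with cluster 11 these counts were 5 (5.72%) and 3 (1.23%). The members lower in cluster 5 included 4 of 8 cartilage, 6 of 6 type VI and 5 of 6 fibril-associated genes, with Col9a1 (-1.40), Col27a1 (-1.34) and Col2a1 (-1.30) among them. In cluster 8 Col9a1 (-1.48), Col11a1 (-1.39) and Col2a1 (-1.30) were lower. Fewer cells of a type and lower accessibility per cell cannot be told apart in such sums.

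Clusters 7, 8 and 3 were then each compared directly with cluster 1. Cluster 7 against cluster 1 asks how cartilage and fibrillar genes divide between them. There, 2 members were higher in cluster 7, beside 0.325% of all genes, and 4 were lower, beside 0.152%. Both higher members were chains of type IX: Col9a3 (1.69 ± 0.37 on the log2 scale, adjusted p = 0.0273) and Col9a1 (1.46 ± 0.31, adjusted p = 0.0232). Lower were the fibrillar Col1a1 (-1.62 ± 0.36, adjusted p = 0.0279) and Col24a1 (-1.20 ± 0.27), Col6a6 (-1.23 ± 0.28) and Col23a1 (-1.09 ± 0.25). Col2a1 (0.82 ± 0.27, adjusted p = 0.191) and Col3a1 (-1.11 ± 0.36, adjusted p = 0.183) did not pass the test over gene bodies. At promoters both did: Col2a1 was higher in cluster 7 (1.41 ± 0.37) and Col3a1 was lower, with 2 promoter fragments at E13.5 and 0 at E15.5 in cluster 7 against 34 and 38 in cluster 1, as were Col1a1 (-3.04 ± 0.49) and Col6a3 (-2.02 ± 0.49). Without E13.5 or without E15.5, no member passed the test over gene bodies, and without cluster 3 1 was higher and 0 lower.

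Cluster 8 against cluster 1 gave the widest split. There, 23 of 42 members were lower in cluster 8, beside 3.04% of all genes, and no member was higher (0 at an unadjusted p under 0.05, and DESeq2 called 0), beside 2.57%. The lower members included 6 of 7 fibrillar, 4 of 8 cartilage, 4 of 6 type VI and both type VIII genes, but 1 of 6 basement membrane genes, Col4a4. Col3a1 had the lowest value (-2.71 ± 0.40, adjusted p = 6.78e-05), then Col1a1 (-2.17 ± 0.37) and Col1a2 (-2.13 ± 0.39). Col4a1 (0.20 ± 0.24), Col4a2 (0.07 ± 0.22), Col15a1 (0.49 ± 0.24) and Col18a1 (0.36 ± 0.23) lay near or above 0, and Col4a3 below it (-0.34 ± 0.26), and these 5 did not pass the test. The count fell to 0 without E13.5 and to 7 without E15.5. In cluster 3 against cluster 1, edgeR called no member, higher or lower, beside 0.168% and 0.411% of all genes, and DESeq2 called none either. At an unadjusted p under 0.05 there were 6. The share of all genes at that threshold is not given, so that count is not read as a difference.

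**Figure D4:**
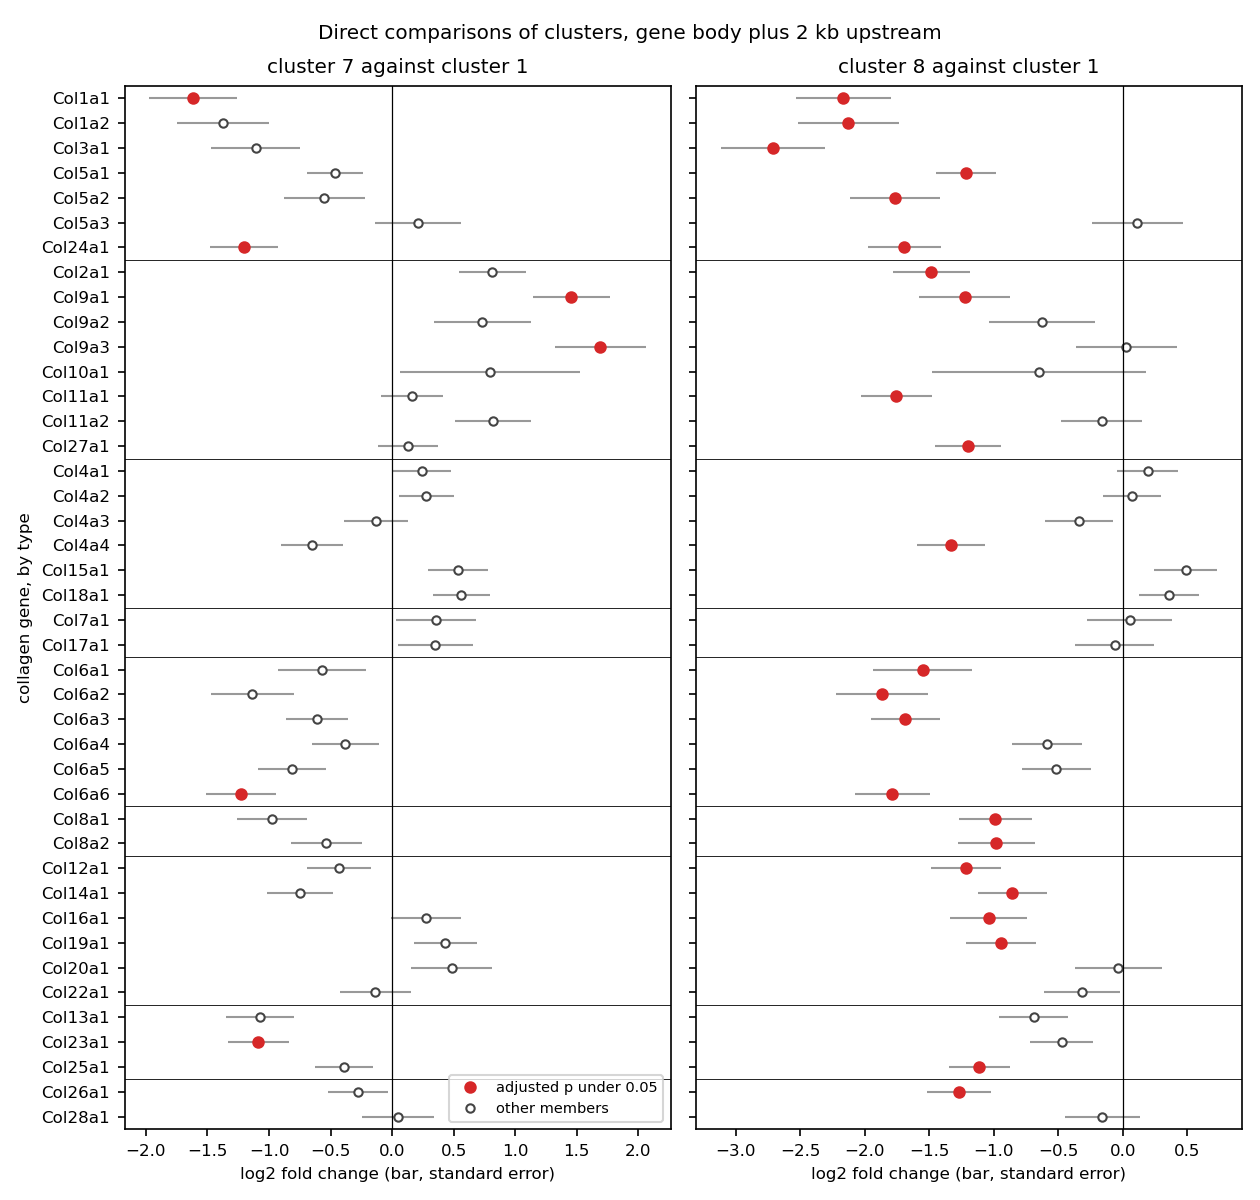
Plot of the log2 fold change (horizontal axes, bar for the standard error) of each collagen gene (rows, by type) in cluster 7 against cluster 1 (left) and in cluster 8 against cluster 1 (right). Filled red dots passed the test: 2 to the right and 4 to the left of 0 for cluster 7, and 23 to the left for cluster 8.

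At promoters, 39 members passed the filter on low counts, and Col10a1, Col25a1 and Col4a3 did not. Higher were 21 in cluster 1 (10.6% of all genes), 23 in cluster 3 (16.3%), 11 in cluster 7 (6.06%) and 12 in cluster 10 (7.05%). Without cluster 11, where 33 members were tested, the counts were 12 (4.83%), 21 (5.65%), 6 (2.56%) and 7 (3.86%). Over all clusters, the 74 calls of a higher promoter became 50 without cluster 11, and fewer without E13.5 (which also lacks cluster 11) or without E15.5. The fits without a library left some clusters with 1 sum, and their shares of all genes are not given. Col6a3 stood out beside the fibrillar promoters in cluster 1 (log2 fold change 3.52 ± 0.30 without cluster 11), with 108 CPM (E12.5), 85.3 CPM (E13.5) and 123 CPM (E15.5). By the highest mean promoter CPM, 15 members led in cluster 1, 8 in cluster 3, 7 in each of clusters 7 and 10, and 5 in the other clusters.

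Some of the genes that modify and assemble collagens, from a list that was chosen with earlier results of these data known, were also more accessible in cluster 1. Of 32, 16 were higher there, beside 7.78% of all genes, 16 in cluster 3 (19.0%), 9 in cluster 7 (5.42%) and 9 in cluster 10 (10.1%). Without cluster 11 the counts were 13 (2.93%), 3 (3.59%), 1 (1.23%) and 5 (5.70%). The smallest adjusted p in cluster 1 belonged to Lox, which cross-links collagens, P3h2, a prolyl 3-hydroxylase, and P4ha2, a prolyl 4-hydroxylase chain, with log2 fold changes of 2.09 ± 0.23, 0.96 ± 0.16 and 0.73 ± 0.18 without cluster 11. In cluster 7 the smallest of the 32 belonged to Plod2, a lysyl hydroxylase, and Serpinh1, the collagen chaperone HSP47, with 0.78 ± 0.19 and 0.71 ± 0.24 without cluster 11, where Plod2 passed the test and Serpinh1 did not. Of 6 collagen receptors, 4 were higher in cluster 1 (2 without cluster 11) and 2 in cluster 7 (0).

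With 1 library per stage, differences between E13.5 and E15.5 have no replicate check, and ratios of CPM carry the 95% interval of counting error only. In mesenchyme-like cluster 1, 4 of 42 members were at least 1.5-fold higher at E15.5, beside 4.79% of all genes with at least 20 fragments, and 0 were lower, beside 8.80%. Col1a1 was at 116 CPM (E12.5), 117 CPM (E13.5) and 176 CPM (E15.5), a ratio of E15.5 over E13.5 of 1.51 (95% interval 1.35 to 1.69). Col13a1 had a ratio of 1.59 (95% interval 1.47 to 1.72), Col11a2 of 1.58 (95% interval 1.31 to 1.89), and Col10a1, on few fragments, of 2.12 (95% interval 1.01 to 4.61). The other chain of type I moved in the same direction below that fold, with 1.43 (95% interval 1.24 to 1.64) for Col1a2, and Col3a1 had 1.22 (95% interval 1.04 to 1.43). The median over the members was 0.16 on the log2 scale, and -0.01 over all genes. Between the same stages the summed CPM of the marker lists in cluster 1 had a ratio of 1.04 for mesenchyme, 1.01 for muscle and 1.03 for neurons, 0.891 for chondrocytes, and 0.775 to 0.961 for the other 8 lists, and their part in the result was not tested. Scaled by promoter fragments, which lowers the median of all genes to -0.19 on the log2 scale, 1 member was higher and 4 were lower, so the counts in cluster 1 depend on the scaling. At promoters, where 30 members had at least 20 fragments, 6 were higher, beside 5.48% of all genes, and 4 were lower, beside 13.3%. With 1 barcode kept per linked group, 2 were higher.

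In cluster 7, 6 of the 8 cartilage genes were at least 1.5-fold lower at E15.5. Of 42 members, 14 were at least 1.5-fold lower, beside 14.2% of all genes, and 4 were higher, beside 16.0%. The lowest ratios were those of Col9a2 at 0.375 (95% interval 0.288 to 0.487), Col2a1 at 0.396 (95% interval 0.343 to 0.457) and Col9a1 at 0.404 (95% interval 0.339 to 0.483), followed by Col9a3 at 0.434 (95% interval 0.352 to 0.536). Col11a2 at 0.473 (95% interval 0.392 to 0.572) and Col11a1 at 0.596 (95% interval 0.503 to 0.707) were lower too, and so were the fibrillar Col1a2, Col3a1, Col24a1 and Col5a2 (0.445 to 0.510). The highest ratios were those of Col1a1 at 1.81 (95% interval 1.32 to 2.54), Col7a1 at 1.73 (95% interval 1.23 to 2.47) and Col6a2 at 1.64 (95% interval 1.14 to 2.42). The chains of type I thus moved apart in this cluster, Col1a1 up and Col1a2 down to 0.445 (95% interval 0.319 to 0.622). The median over the members was -0.32 on the log2 scale, and 0.04 over all genes. The summed CPM of the 7 chondrocyte markers went from 409 at E13.5 to 297 at E15.5, a ratio of 0.727, and the ratio was 0.766 for the 7 epithelial, 0.755 for the 6 Schwann cell and glia, 0.752 for the 6 endothelial and 0.754 for the 6 white blood cell markers. It was 0.919 for the 6 mesenchyme markers, and the other 6 lists lay between 0.880 and 1.17. Their part in the result was not tested. The E13.5 sum held 36 nuclei, of which 11 were linked to another barcode. At promoters, where 18 members had at least 20 fragments, 5 were higher, beside 18.0% of all genes, and 6 were lower, beside 15.1%. With 1 barcode per linked group, 16 members were lower and 2 higher.

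**Figure D5:**
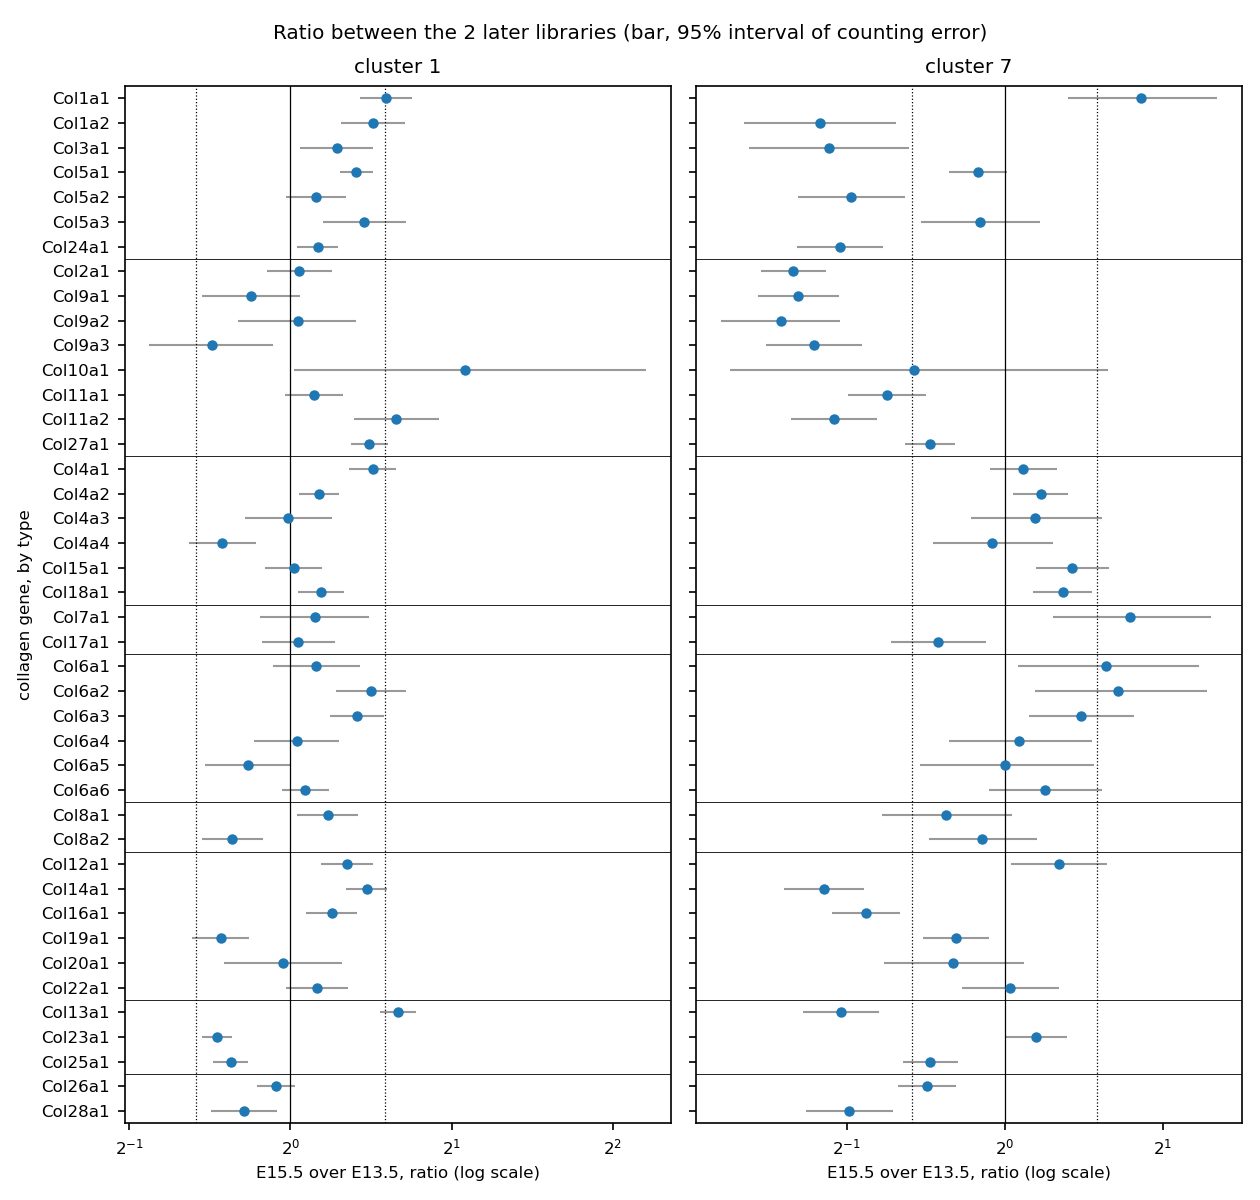
Ratio of CPM at E15.5 over E13.5 (horizontal axes, log scale, bar for the 95% interval of counting error) of each collagen gene (rows, by type) in cluster 1 (left) and cluster 7 (right), with dotted lines at a 1.5-fold difference either way. In cluster 7 most cartilage genes lie left of the dotted line, and in cluster 1 no gene does.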

How the data were processed

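Nuclei from 3 snATAC-seq libraries were analysed. The authors mapped the reads to mm10 with Cell Ranger ATAC 2.0.0 and used Signac 1.6.0, Seurat 4.1.0 and Harmony to join the nuclei with the study's spatial ATAC profiles, from which the clusters came. The deposited values were lists of unique fragments with a barcode and a count of read pairs each, of which each fragment was counted once, and a table of nuclei, of which 20 columns were not used. The 42 members, the gene lists and the tests were chosen with earlier results of these data known.

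Fragments that overlapped a gene body or the 2 kb upstream, or the promoter from 1000 bp before to 100 bp after the start, were counted once per gene without regard to strand, so overlapping genes share fragments. Of 21951 protein-coding genes annotated, 91 of the Pcdh and Ugt families, which the study also left out, and 228 with a counted span over 500 kb were not counted, nor were genes outside chromosomes 1 to 19, X and Y or repeated symbols, which left 21593. Fragments were summed per cluster and library with at least 10 nuclei, since nuclei are not replicates. Libraries held 9402554 to 87687839 unique fragments, and intervals cover counting error only. Barcodes that shared fragments were linked, and doublets were not removed.

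edgeR 4.0.16 in R 4.3.3 fitted a quasi-likelihood model with TMM scaling, library as a block and Benjamini-Hochberg adjustment over all genes tested. Library stands for stage as well, and the block removes what all clusters of a library share. The p-values thus measure how differences between clusters vary from library to library, which may be technical. The fit was tested on simulated data, where recovery of changed genes over all levels fell short of the limit first set, and the limit was then kept only for genes with many fragments and lowered for all genes together. Stages were compared as ratios with exact 95% intervals. Every member was counted. Those named with values were all fibrillar, cartilage, basement membrane and anchoring genes, and of the other types those called higher, in the cluster of their highest mean, and any other name was chosen after its values were seen. Alternatives were DESeq2 1.42.0 and other scaling, filters, windows and sets of sums, and leaving out cluster 11 was added after the data were seen.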

Additional observations from a re-analysis of the deposited data

Results flagged for a closer look

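Col13a1, a membrane-spanning collagen, and Col11a2, a chain of cartilage fibrils, had opposite stage ratios in mesenchyme-like cluster 1 and in cluster 7. The E15.5 over E13.5 ratio of Col13a1 was 1.59 in cluster 1 and 0.487 in cluster 7. That of Col11a2 was 1.58 in cluster 1 and 0.473 in cluster 7. In all 4 cases the interval of counting error left out 1. With 1 library per stage, the difference between the clusters was not tested. Over all genes with at least 20 fragments, 4.79% were at least 1.5-fold higher in cluster 1, and 14.2% were at least 1.5-fold lower in cluster 7. The share of all genes with opposite ratios was not counted. Counts of higher and lower members in cluster 1 also depend on the scaling, as stated above.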

How the results depend on the processing

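The counts of collagen genes called were lowest in the fit without E13.5, which also lacks cluster 11: it gave 10 calls of a higher level, against 65 without cluster 11 alone. Leaving out 1 library at a time, the calls of a higher level over all clusters ranged from 10 to 133 beside 120, with 1 to 7 in cluster 0, 6 to 26 in cluster 1, 0 to 37 in cluster 3, 1 to 2 in cluster 5, 0 to 10 in cluster 6, 0 to 20 in cluster 7, 0 to 4 in cluster 8, 1 to 9 in cluster 9 and 1 to 18 in cluster 10. Calls of a lower level ranged from 13 to 49. Higher promoters ranged from 15 to 77 and lower ones from 5 to 11. In the direct comparison of cluster 7 with cluster 1, 0 to 2 genes were higher and 0 to 6 lower, and in that of cluster 8 with cluster 1, 0 to 22 were lower. A cluster left with 1 sum was assumed to vary like the others. The shares of all genes called in the fits without a library are not given, so a loss of collagen calls cannot be told from a loss over all genes.

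Without cluster 11 there were 65 calls of a higher level over the other clusters, with 20 in cluster 3, 1 in cluster 5, 2 in cluster 6, 7 in cluster 7, 0 in cluster 8 and 3 in cluster 9, while lower calls in those clusters went from 11 to 45 and lower promoters from 2 to 27. Without cluster 3, cluster 0 had 10 higher genes, and cluster 7 against cluster 1 had 1 higher and 0 lower. With 1 barcode per linked group, or at least 20 nuclei per sum, cluster 8 had 4 higher genes. With at least 20 nuclei, cluster 7 against cluster 1 had 7 lower. Lower promoters numbered 23 with 1000 bp to either side and 18 with DESeq2, beside 11. For the stages, scaling by promoter fragments gave 1 higher and 4 lower in cluster 1 and 2 higher in cluster 7. The promoter alone gave 6 higher and 4 lower of 30 in cluster 1 and 5 higher and 6 lower of 18 in cluster 7. With 1 barcode per linked group, 2 were higher in each of these clusters. The causes were not tested.

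In the fit without the replicate block of library there were 121 calls of a higher level and 45 of a lower one, 75 and 11 at promoters, 2 and 3 for cluster 7 against cluster 1, and 22 lower for cluster 8 against cluster 1. The library numbers follow stage and do not pair animals. Over all alternatives, 192 of the compared counts stayed within 1.5 times and 46 did not. Of 45 single values, compared 486 times, none changed direction, 48 comparisons lost the call and 2 gained it. Most of the single values were taken in the cluster of a gene's highest mean, where a change of direction was unlikely from the start. That none changed direction therefore says little. Depth limits the smallest sums, of clusters 1 and 5 at E12.5, cluster 5 at E15.5 and cluster 11, which held 344651 to 467797 gene fragments.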
